A study of Mus musculus with 12 samples.

Results

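Messenger RNA of 10 mouse genes that take up, store, export or sense iron, or that govern lipid peroxides, was followed in SCC7 cells, a wild-type mouse squamous carcinoma line, across 4 media conditioned by bone-marrow-derived macrophages. The 10 genes were taken by name from the 55487 genes of the count table: Tfrc, Slc11a2, Steap3, Fth1, Ftl1, Slc40a1, Aco1, Ireb2, Gpx4 and Acsl4. Of these, 9 passed the filter on low counts that left 14509 genes for testing. Slc40a1 did not pass it. For M1 CM the macrophages had been kept for 24 h with interferon-gamma at 20 ng/ml, for M2 CM for 24 h with interleukin-4 at 20 ng/ml, for TAM CM for 24 h in a mixture with 75% medium conditioned by SCC7 cells, and for M0 CM for 24 h in plain DMEM. SCC7 cells then spent 24 h in the macrophage medium, and their RNA was sequenced in 3 libraries for each of the 4 media, 12 in all. TAM stands for tumour-associated macrophage, and CM for conditioned medium.

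Iron reaches most cells bound to transferrin, is freed and reduced in endosomes, crosses into the cytosol, and is then used, held in ferritin shells or exported. A pair of iron regulatory proteins reads cytosolic iron. When iron is scarce they bind hairpins called iron-responsive elements, which protects the Tfrc message from decay and holds back translation of the ferritin and ferroportin messages. Ferroptosis is a form of cell death in which iron drives the peroxidation of polyunsaturated membrane lipids, and GPX4 removes those peroxides.

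The hairpins are shown because they are the letters that iron regulatory proteins are known to bind in ferritin, ferroportin and transferrin receptor messages. A search of the annotated untranslated regions in GENCODE release M21 (GRCm38) for the loop CAGTGN, with any last letter but G, preceded by a bulged C and closed by 5 paired letters on each side, on the transcribed strand, found sites in 4 of the 10 genes. The 6-letter loop is in capitals, and each window is 30 bases written 5′ to 3′. The 5′ sites lay at chr19:9982732-9982761 (plus strand) in Fth1, at chr7:45459778-45459807 (minus strand) in Ftl1 and at chr1:45925464-45925493 (minus strand) in Slc40a1. The 4 sites in the 3′ untranslated region of Tfrc, on the plus strand, began at positions 32631219, 32631598, 32631663 and 32631710 of chromosome 16.
Fth1 5′ site: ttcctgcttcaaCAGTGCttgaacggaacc
Ftl1 5′ site: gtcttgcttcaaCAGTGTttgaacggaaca
Slc40a1 5′ site: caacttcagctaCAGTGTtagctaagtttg
Tfrc 3′ site 1: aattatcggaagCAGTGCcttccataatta
Tfrc 3′ site 2: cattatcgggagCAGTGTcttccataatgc
Tfrc 3′ site 3: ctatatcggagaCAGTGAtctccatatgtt
Tfrc 3′ site 4: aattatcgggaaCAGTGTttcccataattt
Such a match occurred in 21 of 20848 genes with an annotated 5′ untranslated region (0.101%) and in 98 of 21605 with a 3′ one (0.454%). A match describes letters and not binding, and the other members had no match to these letters in their annotated untranslated regions. The search takes only hairpins whose 5 letters on each side all pair, with G to T pairs allowed. An isoform of Slc11a2 is known to carry a 3′ iron-responsive element with a further bulge, which such a search does not find.

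Library totals ran from 18996937 to 22596630 counts, and all levels are counts-per-million (CPM) on library sizes scaled by TMM, given for replicates 1, 2 and 3 or as mean ± SD (n = 3 libraries). A count of 3 in a library corresponded to between 0.128 and 0.164 CPM. Fold changes are from edgeR's quasi-likelihood fit of all 12 libraries. Each standard error (SE) was worked back from the test, as the absolute log2 fold change divided by the square root of the F statistic. A gene was called at a Benjamini-Hochberg adjusted p under 0.05 over all genes tested. The labels do not state that replicate libraries are separate cultures, so the p-values rest on a spread between libraries that could be technical only. The biological coefficient of variation was 3.65%, so small shifts passed the test. The cell type label of the third M2 CM library names melanoma in place of squamous carcinoma. That library was kept in M2 CM, and calls of members that depend on it are named. The M2 CM calls and counts of the other genes and lists were not checked without it. Of 10 genes listed as squamous epithelial markers, Epcam and Krt6a had 0 counts in all 12 libraries. Krt5, Krt14, Krt17 and Cdh1 had at most 10 counts in all, and Trp63 and Sfn had 211 and 229. Krt8 and Krt18, which are keratins of simple epithelia, were expressed, with 57344 and 27476 counts in all. Of 6 fibroblast markers, Lum had 0 counts in all 12 libraries and the other 5 were expressed. Of 7 melanocyte markers, Sox10 had 0 counts in all 12 libraries and only Mitf exceeded 1 CPM in any.

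SCC7 cells in TAM CM had more message of the transferrin receptor, of both ferritin chains and of Gpx4 than cells in M0 CM, and less of Acsl4. In bulk libraries such as these, fewer cells of a kind and less RNA per cell cannot be told apart. Against M0 CM, 5 of the 9 tested members rose and 4 fell. Calls in this comparison covered 70.0% of all genes tested (35.1% higher and 34.9% lower), so a share of 9 in 9 stands beside a high background. The members' median log2 fold change was 0.41, against 0.00086 over all genes, while their median absolute log2 fold change of 0.41 lay below that of all genes, 0.46. Tfrc was the member that moved most, and 10.6% of all genes had a larger absolute change.

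In M1 CM, 4 of the 9 tested members rose against M0 CM, namely Slc11a2, Fth1, Tfrc and Acsl4, and Ireb2 and Aco1 fell. In that comparison 53.4% of all genes were called (27.7% higher and 25.6% lower). The members' median absolute log2 fold change was 0.11, against 0.25 over all genes. In M2 CM, 5 members rose (Acsl4, Slc11a2, Tfrc, Ireb2 and Aco1) and 4 fell (Steap3, Ftl1, Fth1 and Gpx4), where 39.4% of all genes were called (21.0% higher and 18.5% lower). Their median absolute log2 fold change in M2 CM was 0.29, against 0.18 over all genes. The 3 comparisons share the same M0 CM libraries and are not independent of each other. Without the third M0 CM library the count in M2 CM was 6 in place of 9, with Ftl1, Aco1 and Ireb2 no longer called. Scaled by library size alone, without TMM factors, 3 members were higher and 3 lower in M1 CM, and 3 higher and 4 lower in M2 CM.

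A test of any difference among the 4 media called 9 of the 9 tested members, where 83.5% of all genes were called. In TAM CM against M0 CM, the libraries of the 2 media did not overlap for 9 of 9 members (73.1% of all genes). The count was 9 in M2 CM (49.5% of all genes) and 7 in M1 CM (58.8% of all genes), each against M0 CM.

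The summed level of 15 macrophage markers was 36.8 ± 3.08 CPM in M1 CM, 23.8 ± 1.19 CPM in M2 CM, 46.1 ± 4.796 CPM in TAM CM and 23.2 ± 0.653 CPM in M0 CM. Most of it was Cd14, with 6184 counts in all, while Marco, C1qa, C1qb, C1qc, Tyrobp and Spic had 0 counts in all 12 libraries and 11 of the 15 stayed under 1 CPM. Cd14 and Lyz2 had more counts in TAM CM than in M0 CM (2447 against 1119, and 79 against 53). Cd68 and Csf1r had fewer (171 against 249, and 8 against 20), so the sum does not stand for each marker. The summed level of 6 fibroblast markers, which was higher than that of any other list in every medium, was 1452 ± 50.6 CPM in M1 CM, 1474 ± 12.9 CPM in M2 CM, 1153 ± 30.5 CPM in TAM CM and 2523 ± 78.0 CPM in M0 CM. Col1a2 was the most abundant of them, with 234312 counts in all. The fibroblast markers did not move together. Col1a1, Col1a2 and Col3a1 had fewer counts in TAM CM than in M0 CM. Pdgfra had more (19158 against 15234), as did Dcn (1009 against 182), and both were highest in TAM CM. The sum of the squamous epithelial list was nearly all Krt8 and Krt18, and does not stand for the squamous keratins Krt5, Krt14, Krt6a and Krt17. It was 168 ± 1.75 CPM in M1 CM, 718 ± 39.4 CPM in M2 CM, 96.96 ± 5.46 CPM in TAM CM and 374 ± 15.2 CPM in M0 CM. Both sums were lowest in TAM CM, where Tfrc, Fth1, Ftl1 and Gpx4 were highest. The sum dominated by Krt8 and Krt18 was highest in M2 CM, where Fth1 was lowest and Acsl4, Aco1 and Ireb2 were highest. All 7 erythroid markers stayed under 1 CPM in every library. The part of these markers in the results was not tested.

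**Figure D1:**
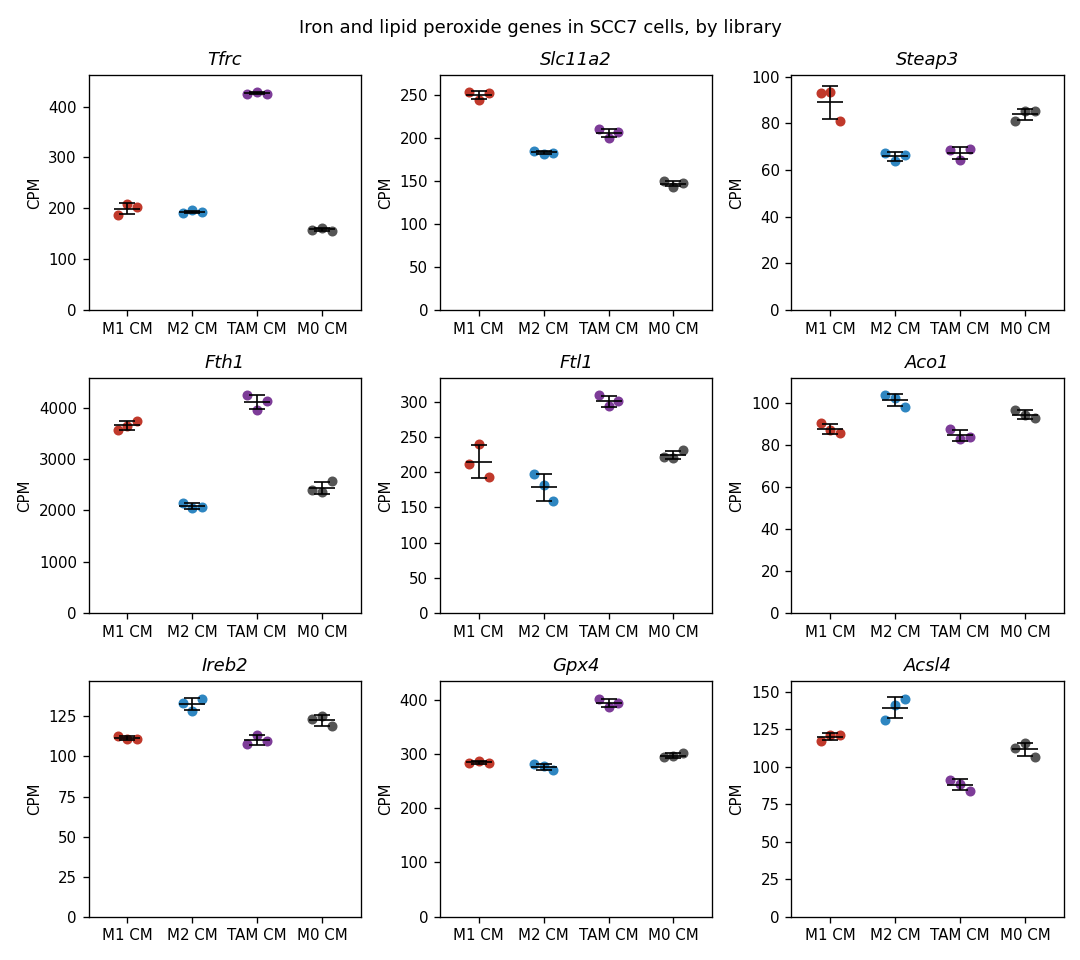
Level of the 9 tested genes in counts-per-million (CPM, TMM-scaled, axes from 0) in every SCC7 library by medium; points are replicates 1 to 3, bars mean ± SD. Tfrc in TAM CM sits between 424 and 428 CPM, above every library of the other media, and Acsl4 in TAM CM lies below every other library.

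Iron uptake begins with Tfrc (ENSMUSG00000022797, chromosome 16, 32608920 to 32632794, plus strand), the transferrin receptor that brings transferrin-bound iron into endosomes. Its level was 187, 209 and 202 CPM in M1 CM, 191, 196 and 193 CPM in M2 CM, 425, 428 and 424 CPM in TAM CM, and 157, 162 and 156 CPM in M0 CM. Every library of the 3 tested media lay above every M0 CM library, and the TAM CM libraries stood well apart from all the rest. Tfrc was 2.68-fold higher in TAM CM than in M0 CM (log2 1.42 ± 0.03 SE, adjusted p = 1.79e-36). In M1 CM the log2 fold change was 0.33 ± 0.04 (adjusted p = 2.78e-11), and in M2 CM it was 0.29 ± 0.04 (adjusted p = 3.38e-09). M2 CM and M1 CM did not differ beyond their spread for Tfrc (log2 -0.04 ± 0.03, adjusted p = 0.305). Without the first M1 CM library this pair was called (log2 -0.09, adjusted p = 0.0364).

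Slc11a2 (ENSMUSG00000023030, chromosome 15, 100387898 to 100425072, minus strand) encodes DMT1, the carrier that moves ferrous iron out of endosomes and, in the gut, across the brush border. It had 253, 245 and 252 CPM in M1 CM, 185, 182 and 183 CPM in M2 CM, 210.3, 201 and 207 CPM in TAM CM, and 149.7, 143 and 148 CPM in M0 CM. Its order was M1 CM, then TAM CM, then M2 CM, then M0 CM, with no overlap between neighbours. Against M0 CM the log2 fold change was 0.77 ± 0.03 in M1 CM (1.70-fold, adjusted p = 2.03e-25), 0.32 ± 0.03 in M2 CM (adjusted p = 5.90e-11) and 0.48 ± 0.03 in TAM CM (adjusted p = 5.83e-18). So the highest Slc11a2 level was in M1 CM and the highest Tfrc level in TAM CM. In TAM CM against M1 CM, Tfrc was higher (log2 1.10 ± 0.03, adjusted p = 8.05e-32) and Slc11a2 lower (log2 -0.28 ± 0.03, adjusted p = 1.70e-10). Gm5475, annotated on the opposite strand over Slc11a2, had 37 counts in all libraries together, against 48931 for Slc11a2.

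Steap3 (ENSMUSG00000026389, chromosome 1, 120190757 to 120272705, minus strand), the endosomal ferrireductase that reduces iron before DMT1 carries it, did not follow Tfrc or Slc11a2. It had 92.9, 93.3 and 80.8 CPM in M1 CM, 67.2, 63.7 and 66.6 CPM in M2 CM, 68.6, 64.3 and 68.9 CPM in TAM CM, and 81.1, 85.2 and 85.1 CPM in M0 CM. The M2 CM and TAM CM libraries all lay below M0 CM, while the third M1 CM library fell below M0 CM and the other two lay above it. Steap3 fell in M2 CM (log2 -0.35 ± 0.05, adjusted p = 4.32e-08) and in TAM CM (log2 -0.32 ± 0.05, adjusted p = 8.17e-08). In M1 CM the log2 fold change of 0.09 ± 0.05 did not pass (adjusted p = 0.104), and without the third M1 CM library it was 0.15 (adjusted p = 0.00519). TAM CM and M2 CM did not differ beyond their spread (log2 0.03 ± 0.05, adjusted p = 0.605).

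Ferritin holds iron in a shell of heavy chains, which oxidise ferrous iron, and light chains, which help it form a mineral core. Fth1 (ENSMUSG00000024661, chromosome 19, 9980598 to 9985098, plus strand) encodes the heavy chain. It had 3558, 3649.9 and 3747 CPM in M1 CM, 2147, 2042 and 2066 CPM in M2 CM, 4236, 3954 and 4133 CPM in TAM CM, and 2389, 2353 and 2563 CPM in M0 CM. The 4 media did not overlap, in the order TAM CM, M1 CM, M0 CM, M2 CM. Fth1 rose in TAM CM (1.69-fold, log2 0.75 ± 0.03, adjusted p = 6.33e-25) and in M1 CM (49.9% higher, log2 0.58 ± 0.03, adjusted p = 1.64e-20), and fell in M2 CM (log2 -0.22 ± 0.03, adjusted p = 8.09e-08). Between TAM CM and M2 CM the difference was 1.97-fold (log2 0.98 ± 0.03, adjusted p = 6.02e-29).

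Ftl1 (ENSMUSG00000050708, chromosome 7, 45457944 to 45459884, minus strand) encodes the light chain. It had 211, 239.8 and 194 CPM in M1 CM, 197, 181 and 159 CPM in M2 CM, 309, 293 and 300.4 CPM in TAM CM, and 222, 219.9 and 231 CPM in M0 CM. The TAM CM libraries lay above all others, the M2 CM libraries lay below M0 CM, and the M1 CM libraries spanned the M0 CM range. Ftl1 rose in TAM CM (log2 0.42 ± 0.09, adjusted p = 0.00219) and fell in M2 CM (log2 -0.33 ± 0.09, adjusted p = 0.0201), a call lost without the third M0 CM library (adjusted p = 0.0592). In M1 CM the log2 value was -0.06 ± 0.09 (adjusted p = 0.617), and without the third M1 CM library it was 0.0083. The coefficient of variation of Ftl1 reached 10.8% within a group, the widest of the 9 members.

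Both ferritin messages carry the 5′ element printed above, and their levels moved unequally. The count ratio of Fth1 to Ftl1, which needs no library scaling, was 16.8, 15.2 and 19.3 in M1 CM, 10.9, 11.3 and 13.0 in M2 CM, 13.7, 13.5 and 13.8 in TAM CM, and 10.8, 10.7 and 11.1 in M0 CM. Both M1 CM and TAM CM lay above every M0 CM library, and M2 CM overlapped M0 CM. The mean ratio was 17.1 ± 2.07 in M1 CM, 11.7 ± 1.13 in M2 CM, 13.7 ± 0.150 in TAM CM and 10.9 ± 0.216 in M0 CM (SD, n = 3 each). An exact two-sided permutation test of the log2 ratio gave p = 0.1 against M0 CM for M1 CM and for TAM CM (0.12 after adjustment over 6 pairs), the smallest p that 3 against 3 allows. For M2 CM against M0 CM the exact permutation p was 0.2. Ftl1 has 8 near copies in the genome with at least 90% identity, which held 1691 counts in all, 2.96% of the count of Ftl1. How reads that match several copies were counted is not stated in the labels or the file, so the size of the ratio is uncertain. Per kilobase of annotated exon, Fth1 stood at 1184 CPM in TAM CM and 702 CPM in M0 CM. Ftl1 stood at 224 CPM in TAM CM and 167 CPM in M0 CM, under the same limit. The length used joins the exons of all annotated isoforms, 3469 bases for Fth1 and 1340 for Ftl1, and can exceed the expressed message. The gap between Fth1 and Ftl1 per kilobase is therefore not a measure of their relative abundance.

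**Figure D2:**
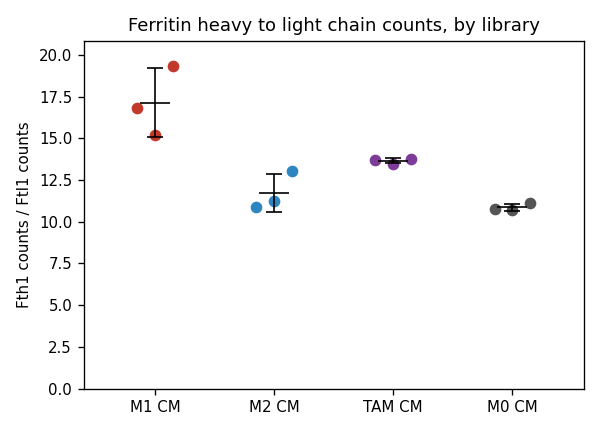
Ratio of Fth1 to Ftl1 counts in every SCC7 library by medium (axis from 0); points are replicates 1 to 3, bars mean ± SD. M1 CM libraries lie between 15.2 and 19.3, TAM CM libraries between 13.5 and 13.8, and M0 CM libraries between 10.7 and 11.1.

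Slc40a1 (ENSMUSG00000025993, chromosome 1, 45908068 to 45926523, minus strand) encodes ferroportin, the cellular iron exporter. It had 2 counts in all 12 libraries together, with 1 in the third M2 CM library, 1 in the second M0 CM library and 0 in the other 10. A count of 0 allows up to 3 counts, the floor used here, and no library held more than 1. No difference in Slc40a1 was detectable at this depth. Intervals and floors of this kind cover counting error only.

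Iron sensing rests on Aco1 (ENSMUSG00000028405, chromosome 4, 40143081 to 40198338, plus strand), which encodes iron regulatory protein 1 and doubles as cytosolic aconitase, and Ireb2 (ENSMUSG00000032293, chromosome 9, 54863789 to 54912530, plus strand), which encodes iron regulatory protein 2. Aco1 had 90.3, 87.1 and 85.6 CPM in M1 CM, 103, 102 and 97.996 CPM in M2 CM, 87.4, 82.5 and 83.5 CPM in TAM CM, and 96.4, 94.0 and 92.6 CPM in M0 CM. Ireb2 had 113, 111 and 111 CPM in M1 CM, 134, 129 and 136 CPM in M2 CM, 108, 113 and 109 CPM in TAM CM, and 123, 126 and 119 CPM in M0 CM. Both genes were highest in M2 CM and lower in M1 CM and TAM CM than in M0 CM. The shifts were small, with log2 fold changes in TAM CM of -0.16 ± 0.04 for Aco1 (adjusted p = 0.000517) and -0.15 ± 0.04 for Ireb2 (adjusted p = 0.000318). In M1 CM, Ireb2 changed by log2 -0.14 ± 0.04 (adjusted p = 0.00170) and Aco1 by -0.11 ± 0.04 (adjusted p = 0.0248). The Aco1 call in M1 CM was lost without the second or the third M1 CM library or the first M0 CM library (adjusted p between 0.0580 and 0.110). In M2 CM, Ireb2 rose by log2 0.12 ± 0.04 (adjusted p = 0.00962) and Aco1 by 0.10 ± 0.04 (adjusted p = 0.0411). The Ireb2 call ended without the third M2 CM library, labelled melanoma (adjusted p = 0.0791), or the third M0 CM library (adjusted p = 0.0919), and the Aco1 call ended under 12 of 22 alternative settings. The larger differences for both genes lay between TAM CM and M2 CM, at log2 -0.26 ± 0.04 for Aco1 (adjusted p = 1.77e-07) and -0.27 ± 0.04 for Ireb2 (adjusted p = 1.22e-08).

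Gpx4 (ENSMUSG00000075706, chromosome 10, 80047166 to 80056439, plus strand) encodes the selenoprotein that reduces phospholipid hydroperoxides with glutathione. It had 283, 288 and 284 CPM in M1 CM, 281, 279 and 271 CPM in M2 CM, 403, 388 and 395 CPM in TAM CM, and 295, 296 and 302 CPM in M0 CM. The TAM CM libraries lay above all others, and the M1 CM and M2 CM libraries lay just below M0 CM. Gpx4 was 1.33-fold higher in TAM CM than in M0 CM (log2 0.41 ± 0.03, adjusted p = 1.10e-16). It fell in M2 CM (log2 -0.10 ± 0.03, adjusted p = 0.00587), and in M1 CM the log2 value of -0.06 ± 0.03 did not pass (adjusted p = 0.0880).

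The pseudogene Gpx4-ps2 matches Gpx4 at 99.7% of 762 aligned bases and held 22677 counts, 29.1% of the count of Gpx4, so the 2 genes cannot be told apart with certainty. Its level was 121 ± 4.39 CPM in TAM CM and 85.4 ± 1.80 CPM in M0 CM (log2 0.51 ± 0.05, adjusted p = 3.48e-09), the same direction as Gpx4. In M1 CM it was 75.8 ± 7.15 CPM (log2 -0.17 ± 0.06 against M0 CM, adjusted p = 0.0103). With the pseudogene counts added, Gpx4 was called lower in M1 CM (log2 -0.09, adjusted p = 0.0135), and DESeq2's Wald test (log2 -0.07, adjusted p = 0.0389) and its size factors used in edgeR (log2 -0.07, adjusted p = 0.0453) also called it lower.

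Acsl4 (ENSMUSG00000031278, chromosome X, 142317993 to 142390535, minus strand) encodes the acyl-CoA synthetase that loads polyunsaturated fatty acids for membrane lipids, the substrate of ferroptosis. It had 117, 121 and 121 CPM in M1 CM, 131, 141 and 145 CPM in M2 CM, 90.9, 88.6 and 83.7 CPM in TAM CM, and 112, 115 and 107 CPM in M0 CM. Its order was M2 CM, M1 CM, M0 CM, TAM CM, with no overlap between neighbours. Acsl4 fell in TAM CM (log2 -0.34 ± 0.04, adjusted p = 3.26e-10) and rose in M2 CM (log2 0.32 ± 0.04, adjusted p = 3.53e-09). The rise in M1 CM was small (log2 0.10 ± 0.04, adjusted p = 0.0262) and was lost without the second or the third M1 CM library or the first or the third M0 CM library (adjusted p between 0.0504 and 0.177). Between TAM CM and M2 CM, Acsl4 differed by log2 -0.67 ± 0.04 (adjusted p = 6.63e-20) and Gpx4 by 0.51 ± 0.03 (adjusted p = 3.21e-20), in opposite directions.

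**Figure D3:**
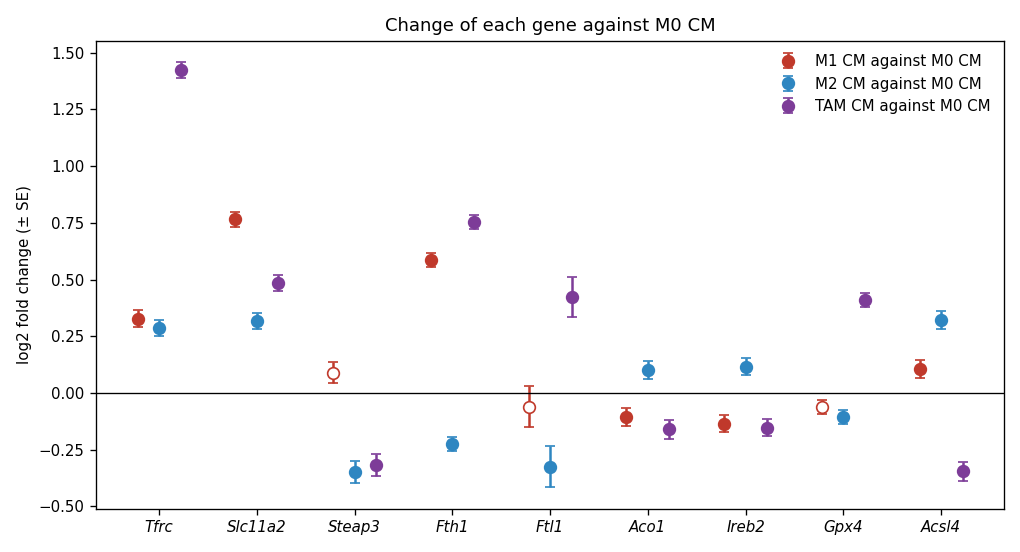
Log2 fold change from edgeR's fit (± SE, worked back from the F statistic) of the 9 tested genes in M1 CM, M2 CM and TAM CM, each against M0 CM. Filled points passed an adjusted p of 0.05 and open points did not. Tfrc in TAM CM, at 1.42, is the largest change shown, and Steap3, Ftl1 and Gpx4 in M1 CM are the open points.

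Set directly against each other, the media again differed for most members, as they did for most of all genes tested. In TAM CM against M1 CM, 4 of 9 members were higher and 3 lower, where 67.2% of all genes were called (32.8% higher and 34.4% lower), and Aco1 and Ireb2 did not differ beyond their spread (adjusted p = 0.240 and 0.717). In TAM CM against M2 CM, 5 were higher and 3 lower, where 68.4% of all genes were called (34.3% higher and 34.1% lower), with Steap3 not called. In M2 CM against M1 CM, 3 were higher and 4 lower, where 56.2% of all genes were called (27.8% higher and 28.4% lower), and Fth1 was the member that differed most (log2 -0.81 ± 0.03, adjusted p = 1.46e-25). Libraries of the 2 media did not overlap for 7 members in TAM CM against M1 CM (69.5% of all genes), 8 in TAM CM against M2 CM (71.3%) and 7 in M2 CM against M1 CM (59.8%). Steap3 also was lower in M2 CM than in M1 CM (log2 -0.44 ± 0.05, adjusted p = 4.02e-11), and Slc11a2 was lower by a like amount (log2 -0.45 ± 0.03, adjusted p = 1.19e-16). The Ftl1 call between these media (log2 -0.27 ± 0.09, adjusted p = 0.0345) came with overlapping libraries and was lost without any 1 of 5 libraries (adjusted p between 0.0505 and 0.0949), among them the third M2 CM library.

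Among 13 other tested genes of iron import, export and carriage, 7 rose and 4 fell in TAM CM, 8 rose and 2 fell in M1 CM, and 2 rose and 4 fell in M2 CM, each against M0 CM. Their median log2 fold change was 0.49 with M1 CM, -0.03 with M2 CM and 0.38 with TAM CM, beside medians over all genes of 0.01, -0.0035 and 0.00086. The 10, 6 and 11 genes called stand beside 53.4%, 39.4% and 70.0% of all genes called in M1 CM, M2 CM and TAM CM. With library sizes alone the counts were 6 higher and 3 lower in M1 CM and 1 higher and 4 lower in M2 CM. Slc39a14, which carries iron not bound to transferrin, rose to 232 ± 5.90 CPM in TAM CM, against 99.9 ± 1.38 CPM in M0 CM (log2 1.22 ± 0.04, adjusted p = 1.06e-32). Steap1, a relative of Steap3, rose in M1 CM (log2 0.54 ± 0.04), M2 CM (0.16 ± 0.05) and TAM CM (1.39 ± 0.04), while Steap3 fell in M2 CM and TAM CM. Lcn2, which binds iron-loaded siderophores, was 24.5 ± 1.27 CPM in M1 CM, 0.549 ± 0.214 CPM in M2 CM, 18.2 ± 2.51 CPM in TAM CM and 0.704 ± 0.215 CPM in M0 CM. Lcn2 rose in M1 CM (log2 5.12 ± 0.16, adjusted p = 4.68e-31) and TAM CM (log2 4.69 ± 0.17, adjusted p = 4.22e-29), and in M2 CM its log2 value of -0.36 ± 0.35 did not pass (adjusted p = 0.443). Cp, the ferroxidase ceruloplasmin that works beside ferroportin, fell in TAM CM to 19.5 ± 2.17 CPM, against 49.4 ± 2.31 CPM in M0 CM (adjusted p = 4.01e-19). Lrp1, a receptor for haem bound to haemopexin among many other ligands, fell in all 3 media, by log2 values of -0.63 ± 0.03 for M1 CM, -0.63 ± 0.03 for M2 CM and -0.71 ± 0.03 for TAM CM.

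Of 7 other tested genes of iron storage and sensing, 6 rose and 0 fell in TAM CM, while 1 rose and 2 fell in M1 CM and 2 rose and 1 fell in M2 CM (1 and 1 with library sizes alone). In TAM CM, 0 of the 7 were lower at an unadjusted p under 0.05 in edgeR's test, and DESeq2 gave 6 higher and 0 lower. Of all genes, 35.1% were called higher and 34.9% lower in TAM CM, 27.7% and 25.6% in M1 CM, and 21.0% and 18.5% in M2 CM. The list's median log2 fold change was 0.05 with M1 CM, 0.06 with M2 CM and 0.26 with TAM CM. Ncoa4, the receptor that delivers ferritin to lysosomes for breakdown, was 49.5 ± 3.04 CPM in M1 CM, 67.7 ± 4.19 CPM in M2 CM, 85.3 ± 1.92 CPM in TAM CM and 65.1 ± 1.10 CPM in M0 CM. It rose in TAM CM (log2 0.39 ± 0.05, adjusted p = 4.48e-10) and fell in M1 CM (log2 -0.40 ± 0.05, adjusted p = 2.04e-09), whereas Fth1 rose in both. Fbxl5, the iron-stabilised ligase subunit that marks iron regulatory protein 2 for breakdown, rose in M1 CM (log2 0.68 ± 0.05, adjusted p = 2.65e-18), M2 CM (0.13 ± 0.05, adjusted p = 0.0224) and TAM CM (0.43 ± 0.05, adjusted p = 6.56e-12). Erfe, known as an erythroid hormone that lowers hepcidin, rose in TAM CM to 21.6 ± 1.20 CPM, against 4.89 ± 0.530 CPM in M0 CM (adjusted p = 6.35e-22).

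A further list held 26 genes of mitochondrial iron and of iron-sulphur assembly, not all of them mitochondrial (Ciao1 and Ciapin1 are examples). Of these, 9 rose and 4 fell in M1 CM (9 and 7 with library sizes alone). In M2 CM 8 rose and 2 fell (6 and 3 with library sizes alone). In TAM CM 9 rose and 9 fell (8 and 9 with library sizes alone). These counts, 13, 10 and 18 of 26, lay near the share of all genes called, which was 53.4% for M1 CM, 39.4% for M2 CM and 70.0% for TAM CM, and the list medians were log2 0.04, 0.02 and 0.06. Slc25a37, or mitoferrin 1, which carries iron into mitochondria, was 377 ± 23.1 CPM in M1 CM, 129 ± 4.89 CPM in M2 CM, 298 ± 2.21 CPM in TAM CM and 151 ± 2.86 CPM in M0 CM. It rose in M1 CM and TAM CM (log2 1.32 ± 0.04 and 0.98 ± 0.04) and fell in M2 CM (log2 -0.23 ± 0.04, adjusted p = 2.68e-06). Hspa9, the mitochondrial chaperone that also serves cluster transfer, rose in all 3 media, most in TAM CM (log2 1.80 ± 0.03, adjusted p = 2.70e-42).

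Of 13 haem genes, 5 rose and 4 fell in M1 CM (4 and 5 with library sizes alone), 1 rose and 2 fell in M2 CM (1 and 4 with library sizes alone), and 6 rose and 7 fell in TAM CM. Among all genes 53.4% were called for M1 CM, 39.4% for M2 CM and 70.0% for TAM CM, so the 3 of 13 in M2 CM lay below that share. The median log2 fold change of the list was 0.04 for M1 CM, -0.05 for M2 CM and -0.28 for TAM CM. Hmox1, the haem oxygenase that frees iron from haem, was 283 ± 26.2 CPM in M1 CM, 108 ± 7.16 CPM in M2 CM, 1870 ± 204 CPM in TAM CM and 108 ± 5.91 CPM in M0 CM. Its fold over M0 CM was 17.4 in TAM CM (log2 4.12 ± 0.11, adjusted p = 5.35e-10) and 2.62 in M1 CM (log2 1.39 ± 0.10, adjusted p = 3.23e-06), and M2 CM did not differ beyond its spread (adjusted p = 0.963). Along the synthesis pathway, Cpox rose in all 3 media, by log2 0.59 ± 0.05 for M1 CM, 1.36 ± 0.04 for M2 CM and 1.81 ± 0.04 for TAM CM. Fech, which inserts iron into the porphyrin ring, fell in M1 CM (log2 -0.40 ± 0.04) and in TAM CM (log2 -0.60 ± 0.04, adjusted p = 6.48e-17).

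Around Gpx4, the glutathione and selenoprotein arm of ferroptosis defence had 18 other tested genes, of which 9 rose and 0 fell in M1 CM, 12 rose and 3 fell in M2 CM, and 13 rose and 2 fell in TAM CM. In M1 CM, 0 were lower at an unadjusted p under 0.05 in edgeR's test, and DESeq2 gave 8 higher and 0 lower. With library sizes alone the counts were 8 higher and 3 lower in M1 CM and 12 higher and 4 lower in TAM CM. The 9 of 18 called in M1 CM lay near the 53.4% of all genes called there, and the 15 called in M2 CM and 15 in TAM CM stand beside 39.4% and 70.0%. The list median was log2 0.12 for M1 CM, 0.20 for M2 CM and 0.64 for TAM CM. The list also holds genes that act against this arm, such as Chac1 and Keap1. Its counts and medians therefore do not measure the strength of defence. Slc7a11, the transport subunit of the cystine importer, was 278 ± 27.3 CPM in M1 CM, 38.0 ± 4.65 CPM in M2 CM, 725 ± 28.6 CPM in TAM CM and 23.5 ± 3.58 CPM in M0 CM. Its fold over M0 CM was 11.8 in M1 CM (adjusted p = 9.46e-09), 1.61 in M2 CM (adjusted p = 0.00501) and 30.8 in TAM CM (adjusted p = 3.43e-10). Slc3a2, its partner chain, was 284 ± 18.1 CPM in M1 CM, 158 ± 0.218 CPM in M2 CM, 1005 ± 20.7 CPM in TAM CM and 123 ± 5.14 CPM in M0 CM, and rose in all 3. Chac1, which breaks glutathione down, also rose in all 3, with 78.7 ± 10.96 CPM in M1 CM, 16.3 ± 0.675 CPM in M2 CM, 509 ± 13.5 CPM in TAM CM and 6.54 ± 0.253 CPM in M0 CM. Gclm, the modifier subunit of the first enzyme of glutathione synthesis, rose in M1 CM (log2 1.09 ± 0.05), M2 CM (0.59 ± 0.05) and TAM CM (1.41). Next to these, the change of Gpx4 itself in TAM CM (log2 0.41) was small. Keap1, which holds NRF2 in check, fell in TAM CM (log2 -0.81 ± 0.05, adjusted p = 6.82e-19).

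The lipid radical arm of defence, which works without glutathione, had 17 tested genes, of which 3 rose and 8 fell in M1 CM (3 and 9 with library sizes alone). In M2 CM 5 rose and 5 fell (4 and 5 with library sizes alone). In TAM CM 6 rose and 7 fell (4 and 10 with library sizes alone). So 11, 10 and 13 were called, beside 53.4%, 39.4% and 70.0% of all genes in the same comparisons, with list medians of log2 -0.14, 0.05 and -0.13. This list too holds a gene that acts against its arm, Dhcr7, so its counts and medians do not measure the strength of defence. Gch1, the entry enzyme of tetrahydrobiopterin synthesis, was 17.1 ± 0.659 CPM in M1 CM, 4.46 ± 1.30 CPM in M2 CM, 29.2 ± 2.38 CPM in TAM CM and 4.34 ± 0.859 CPM in M0 CM, and rose in M1 CM and TAM CM. Aifm2, or FSP1, which regenerates reduced coenzyme Q, rose in M1 CM (log2 0.76 ± 0.06, adjusted p = 1.47e-16) and M2 CM (0.35 ± 0.06, adjusted p = 2.33e-06) and fell slightly in TAM CM (log2 -0.13 ± 0.06, adjusted p = 0.0464). Scd2, a desaturase that makes monounsaturated fatty acids, was 882 ± 33.7 CPM in M1 CM, 1237 ± 37.7 CPM in M2 CM, 203 ± 8.73 CPM in TAM CM and 1478 ± 80.6 CPM in M0 CM, and fell in all 3. Scd1 fell in TAM CM by log2 values of -1.32 ± 0.03 and Acsl3, which activates monounsaturated fatty acids, by -1.37 (adjusted p = 1.13e-35 and 3.49e-26).

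On the side of drivers, where Acsl4 belongs, 18 other tested genes included 7 that rose and 5 that fell in M1 CM (7 and 8 with library sizes alone). In M2 CM 4 rose and 2 fell (3 and 6 with library sizes alone). In TAM CM 9 rose and 8 fell (7 and 8 with library sizes alone). The 12 called in M1 CM stand beside 53.4% of all genes, the 6 in M2 CM lay below the 39.4% of all genes, and the 17 in TAM CM stand beside 70.0%. The medians were log2 -0.05, 0.06 and 0.05, so in M1 CM the median lay below 0 although more genes rose than fell. Fads2, a desaturase of polyunsaturated fatty acid synthesis, fell in TAM CM to 35.0 ± 2.08 CPM, against 195 ± 7.53 CPM in M0 CM (log2 -2.48 ± 0.04, adjusted p = 2.94e-42). Fads1 fell in M2 CM and TAM CM (log2 -0.28 ± 0.03 and -0.46 ± 0.03). Sat1, which acetylates polyamines, rose in all 3 media, to 193 ± 3.11 CPM in TAM CM, against 60.0 ± 1.52 CPM in M0 CM (log2 1.68 ± 0.04, adjusted p = 7.70e-37). The lists were chosen from pathway knowledge with earlier results of these data known, and they differ in size.

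**Figure D4:**
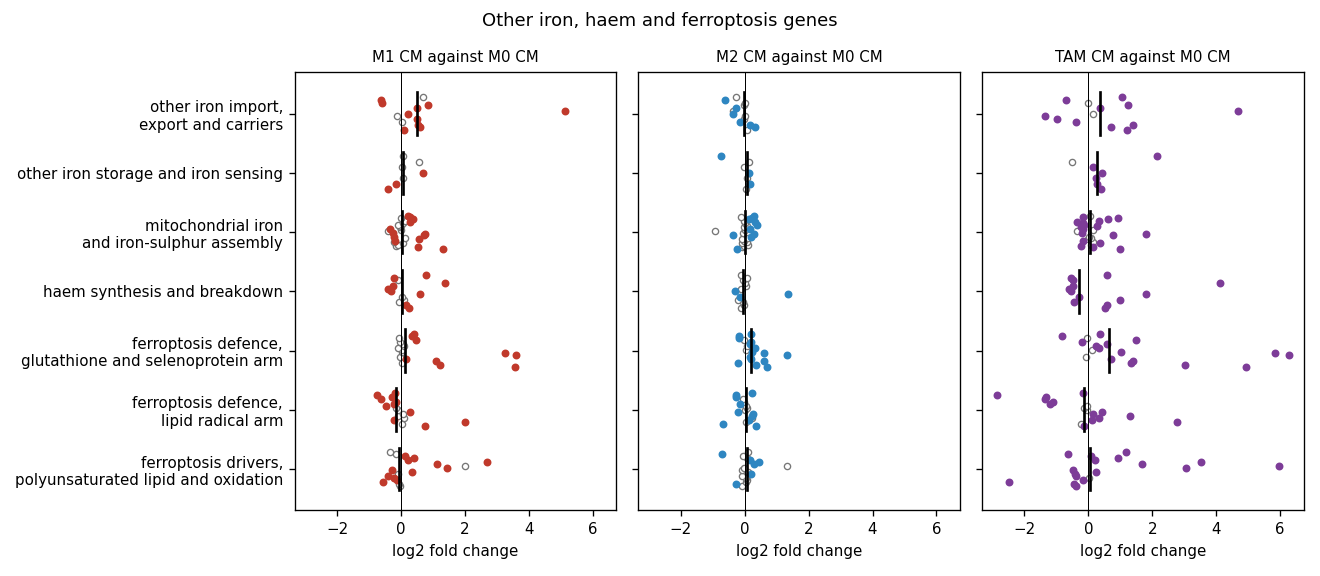
Log2 fold change of each tested gene of the 7 lists of other iron, haem and ferroptosis genes in M1 CM, M2 CM and TAM CM, each against M0 CM; each point is a gene, filled where the adjusted p was under 0.05, and the black bar is the list median. The median of the glutathione and selenoprotein list in TAM CM is 0.64 and that of the import, export and carriage list is 0.38; every list has genes on both sides of 0 in TAM CM.

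The genes whose log2 CPM across the 12 libraries most resembled that of a member were listed as a description, with Pearson's r over libraries that fall in 4 groups and with no test. For Tfrc they were Dld, Esf1 and Ipo7 (r = 0.998 each), and Esf1 had 283 CPM in TAM CM and 67.7 CPM in M0 CM. For Fth1 they were Clcf1, Slc27a1 and Hps4 (r = 0.997, 0.995 and 0.993), and for Gpx4 Tbl1x, Rmnd5a and Serpinf1 (r = 0.993 each). For Slc11a2 they were Tmcc3, Il1rl1 and Tor3a (r = 0.991, 0.983 and 0.981), and for Acsl4 Fbn1, Tmem167 and Fam3c (r = 0.981, 0.979 and 0.978). Il1rl1 had 2814 CPM in M1 CM, 697 CPM in M2 CM, 1565 CPM in TAM CM and 282 CPM in M0 CM. For Ftl1 they were Mettl3, Exoc3l and Msln (r between 0.953 and 0.961), the lowest likeness of the 9 members together with Steap3, whose nearest were Ift140, Tmbim6 and Pmp22 (r between 0.956 and 0.968). Aco1 was nearest to Cactin, Rpp30 and Nono (r between 0.977 and 0.987), and Ireb2 to Tmem19, Zfp36l1 and Ipo8 (r between 0.976 and 0.982).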

How the data were processed

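RNA of SCC7 cells was extracted with Trizol and sequenced as mRNA libraries, per the labels' protocols. The authors deposited whole-number read counts per Ensembl gene, unscaled. Per the submitters' processing notes, HISAT2 2.0 and build mm10 were used. Not given in the sources used here are the counting tool, the annotation release and any use of strand. Of 55487 genes, 55227 matched a symbol of GENCODE M21 (GRCm38). Library totals were 18996937 to 22596630 counts, and untested genes held 0.0815% of counts.

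Counts were fitted in R 4.3.3 with edgeR 4.0.16 (filterByExpr, TMM, robust quasi-likelihood, 1 mean per medium, all 12 libraries), and 6 pairs of media were tested with Benjamini-Hochberg adjustment over 14509 genes at 0.05. Alternatives used DESeq2 1.42.0 (Wald test and size factors), library sizes alone, other filters, the 2 groups alone, a replicate term, glmTreat at 1.5-fold, pseudogene counts added, and each library left out. Adding all near copies was chosen after seeing the data. Near copies were transcripts of other genes with at least 90% identity over at least 150 bases (BLAST 2.17.0). The method was tested on simulated data for M1 CM against M0 CM only, drawn independently for each library with the fitted spread. Such data cannot show whether that spread is biological or technical. The labels do not say that replicate numbers pair the libraries, and no 2 libraries were identical.

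The text names the 10 members, up to 2 rising and 2 falling genes of each list by smallest adjusted p, 10 further genes taken by name, and the 3 genes most like each member. It prints part of these. The values of Acsl3 and Gclm in TAM CM lie outside that rule and were added after they were seen. The members and lists were chosen with earlier results of these data known.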

Additional observations from a re-analysis of the deposited data

How the results depend on the processing

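Over 54 log2 fold changes (9 members in 6 comparisons) and 1188 alternative values, 1110 kept direction and side of the threshold, 69 lost the call, 7 gained it and 2 changed sign. The sign changes were in values not called: Ftl1 in M1 CM against M0 CM was 0.0083 without the third M1 CM library (range over single libraries left out -0.14 to 0.0083), and Steap3 in TAM CM against M2 CM was -0.012 with library sizes alone. Against a 1.5-fold threshold (glmTreat) the members called fell to 1 for M1 CM, 0 for M2 CM and 2 for TAM CM against M0 CM, and to 1 in TAM CM against M1 CM, 3 in TAM CM against M2 CM and 1 in M2 CM against M1 CM. That threshold asks for a larger change by construction. Of the 14509 genes tested, 920 were higher and 452 lower at that threshold in M1 CM against M0 CM. The counts were 201 and 175 in M2 CM and 1871 and 1941 in TAM CM, each against M0 CM. They were 1266 and 1716 in TAM CM against M1 CM, and 1756 and 1666 in TAM CM against M2 CM. In M2 CM against M1 CM they were 387 and 1026. For M2 CM, 0 members passed that threshold at an unadjusted p under 0.05, while edgeR called 9 and DESeq2 called 8 of 9 without it. The haem list in M2 CM against M0 CM had 5 genes called with library sizes alone, against 3. Library sizes alone shifted the median log2 fold change of all genes by -0.067 for M1 CM, -0.055 for M2 CM and -0.097 for TAM CM, each against M0 CM. They gave 3219 higher and 4626 lower genes in M1 CM (4023 and 3719 with TMM), 2201 and 3653 in M2 CM (3042 and 2681), and 4300 and 5891 in TAM CM (5089 and 5067). Under that scaling Acsl4 in M1 CM (adjusted p = 0.461) and Aco1 and Ireb2 in M2 CM (adjusted p = 0.397 and 0.204) were not called, and Gpx4 was called lower in M1 CM (log2 -0.13). DESeq2 did not call Acsl4 in M1 CM (adjusted p = 0.108) and called Gpx4 lower there (adjusted p = 0.0389). The cause of these changes was not tested. With the replicate block, 6, 9 and 9 members were called in M1 CM, M2 CM and TAM CM against M0 CM, as without it. Over all 14509 genes the block gave 4061 higher and 3745 lower in M1 CM, 3101 and 2720 in M2 CM, and 5091 and 5093 in TAM CM. Same-numbered libraries did not deviate together (r from -0.029 to 0.051 over 18 pairs). The labels do not say whether they were made together, so the replicate block is no paired test. Depth limits Slc40a1 alone among the members.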
